A study of Mus musculus with 3 samples.

Results

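In a study of Sp8 and Sp9 in the development of bulb interneurons, peaks of Sp9, a zinc finger transcription factor, were mapped in the neonatal olfactory bulb, and those described here were named by the authors for vomeronasal receptor genes (Vmn1r and Vmn2r) or trace amine-associated receptor genes (Taar). Every peak whose gene name began with Vmn1r or Vmn2r, or with Taar and a digit, was taken, which gave 82 of 19979 peaks and 69 gene names. Of these peaks, 45 were named for 40 Vmn1r genes, 37 for 29 Vmn2r genes and 0 for Taar genes. Chromatin came from olfactory bulbs of CD1 mice at postnatal day 0 to 2, crosslinked in formaldehyde. There were 2 libraries precipitated with a homemade antibody against Sp9 and 1 input library that had received no antibody. The bulbs carried no label for a genotype or a treatment, and neither labels nor file tell whether the immunoprecipitations shared a pool of bulbs. The list of peaks shared by the immunoprecipitations holds 1 score per peak and names no library, so no value below has an error between replicates and no test was made.

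Vomeronasal and trace amine receptors are G protein-coupled receptors of sensory neurons in the nose. Vmn1r genes (V1R) encode receptors with a short extracellular end and are used by the neurons of the apical layer of the vomeronasal organ. Vmn2r genes (V2R) encode receptors with a large extracellular ligand domain and are used by the basal layer. Each such neuron uses a single receptor gene or very few, and its axon runs to the accessory olfactory bulb. Most Taar genes serve neurons of the main olfactory epithelium that detect volatile amines, and Taar1 is not used there as an odorant receptor. The nuclei of these sensory neurons lie in the nose, and only their axons reach the bulb. Receptor genes stand in tandem clusters of close copies, so reads can fit several of them. Neither labels nor file state how reads that fit several places were assigned.

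Promoter windows are printed for 4 genes to show the base composition of these clusters and the single window that departed from it. Each window runs from 250 bases before to 50 bases after an annotated start, 5′ to 3′ on the strand of the gene, and comes from RefSeq on build GRCm38.p6. The peaks are in another build, mm9, so it is not known whether a peak covers a window. Capitals mark CG dinucleotides. Vmn2r29 had 2 annotated starts, at chr7:7278240-7278539 and chr7:7247279-7247578, both on the minus strand. Vmn2r75 and Vmn1r48 had the next highest scores of Vmn2r peaks and the highest of Vmn1r peaks, and Taar5, the receptor of trimethylamine, stands for the family that had no peak. Their windows lie at chr7:86171675-86171974 on the minus strand, chr6:90036792-90037091 on the minus strand and chr10:23970456-23970755 on the plus strand.
Vmn2r29, first window: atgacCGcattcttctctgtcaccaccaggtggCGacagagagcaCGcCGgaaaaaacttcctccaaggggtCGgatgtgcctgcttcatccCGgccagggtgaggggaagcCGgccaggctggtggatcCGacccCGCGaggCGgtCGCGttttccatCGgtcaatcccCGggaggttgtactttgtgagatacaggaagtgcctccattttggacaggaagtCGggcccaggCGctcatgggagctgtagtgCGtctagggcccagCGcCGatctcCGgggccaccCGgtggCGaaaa
Vmn2r29, second window: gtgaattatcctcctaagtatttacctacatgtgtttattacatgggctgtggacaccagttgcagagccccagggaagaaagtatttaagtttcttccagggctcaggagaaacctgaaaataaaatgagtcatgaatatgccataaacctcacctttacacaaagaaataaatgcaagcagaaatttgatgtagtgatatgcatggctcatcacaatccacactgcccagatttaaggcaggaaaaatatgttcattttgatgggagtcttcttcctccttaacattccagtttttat
Vmn2r75: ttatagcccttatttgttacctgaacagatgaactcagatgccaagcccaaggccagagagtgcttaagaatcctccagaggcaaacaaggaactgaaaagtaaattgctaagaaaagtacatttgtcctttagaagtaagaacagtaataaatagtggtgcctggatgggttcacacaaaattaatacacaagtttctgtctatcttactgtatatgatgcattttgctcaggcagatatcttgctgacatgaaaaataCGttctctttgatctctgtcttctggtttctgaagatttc
Vmn1r48: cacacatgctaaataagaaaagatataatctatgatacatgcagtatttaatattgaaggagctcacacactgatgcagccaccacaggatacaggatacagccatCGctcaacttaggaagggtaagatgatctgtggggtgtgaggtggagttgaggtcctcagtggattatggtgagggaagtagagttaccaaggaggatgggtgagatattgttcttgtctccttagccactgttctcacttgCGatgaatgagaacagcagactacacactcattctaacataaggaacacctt
Taar5: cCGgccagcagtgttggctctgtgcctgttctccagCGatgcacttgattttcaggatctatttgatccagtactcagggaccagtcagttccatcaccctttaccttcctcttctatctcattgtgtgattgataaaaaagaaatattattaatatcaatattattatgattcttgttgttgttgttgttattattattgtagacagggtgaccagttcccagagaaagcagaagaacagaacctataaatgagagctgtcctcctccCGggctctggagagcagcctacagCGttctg
The first window of Vmn2r29 held 23 CG dinucleotides and 62.3% G and C. Its second window held 0 CG dinucleotides and 38.3% G and C, which is the composition common to the families. In Vmn1r48 the window held 2 CG dinucleotides and 43.3% G and C, the highest value among Vmn1r windows with a linked peak (median 34.8%). In Taar5 the window held 4 CG dinucleotides and 42.7% G and C, above the Taar median of 37.3%. These windows thus lay above the middle of their families in G and C.

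The share of receptor genes with a linked peak lay well under that of coding genes in general. A linked peak is one that bears the gene's name in the deposited list, which holds neither a distance to the gene nor the part of the gene (promoter, exon or intron) that was covered. Of 231 coding Vmn1r genes of the gene table, 40 had a linked peak (17.3%, exact 95% interval 12.7 to 22.8%). Of 124 coding Vmn2r genes, 26 had one (21.0%, interval 14.2 to 29.2%), so the intervals of the families overlapped. Over all 21900 coding genes the share was 55.4%. Olfactory receptor genes (Olfr), the other large chemoreceptor family, had a share of 8.74% (97 of 1110 genes, interval 7.14 to 10.56%), below the interval of either vomeronasal family. With a peak at or above the median score of the list, the shares were 8.66% for Vmn1r, 9.68% for Vmn2r and 35.4% for all coding genes. Intervals are exact Clopper-Pearson intervals that treat genes as independent, which tandem copies are not. The gene table is of another build than the peaks, and neither labels nor file tell which coding genes the authors' annotation held. A gene absent from that annotation would count here as one without a linked peak.

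Trace amine receptor genes had no linked peak. All 15 coding Taar genes stand in 1 cluster on chromosome 10, and 0 of 15 allows a share of up to 20%. They include Taar4, a receptor of phenylethylamine, and Taar5. The nearest genes with a peak on either side in gene order were Rps12, a ribosomal protein gene, with a score of 87.8 at chr10:23506589-23507525, and Stx7, a syntaxin of endosomes, with a score of 84.07 at chr10:23868783-23869678. Between these peaks lay 361 kb without any peak of the list, whatever its name. Both flanking scores were near the lower end of the list, which began at 80.01.

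**Figure D1:**
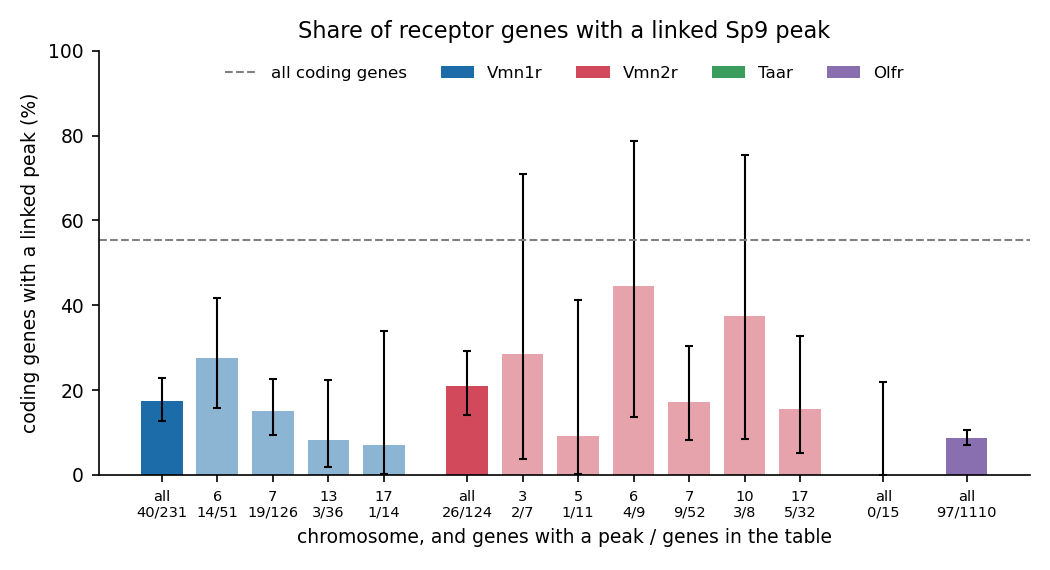
Share of protein-coding Vmn1r, Vmn2r, Taar and Olfr genes with at least 1 linked peak, over all chromosomes (dark bars) and for chromosomes with 5 or more genes of the family (light bars); lines are exact 95% intervals, and the dashed line is the share over all coding genes. The family bars stand at 17.3% for Vmn1r, 21.0% for Vmn2r, 0 for Taar and 8.74% for Olfr, under the dashed line at 55.4%.

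Pseudogenes were rarely named in the list unless classed as transcribed: of 10622 pseudogenes of the gene table, 136 (1.28%) had a linked peak. Of 487 transcribed pseudogenes 132 had one (27.1%), and of 9955 classed plainly as pseudogenes 2 had one (0.02%). How many pseudogenes of these families are transcribed was not counted. Of 142 Vmn1r pseudogenes 0 had a linked peak, which allows a share of up to 2.11% by the limit of 3 counts (2.56% by the exact interval). Of 148 Vmn2r pseudogenes 3 had one (2.03%). These were Vmn2r-ps11 with a score of 237.27, Vmn2r-ps60 with 192.67 and Vmn2r-ps54 with 91.73, and the table classes all 3 as transcribed. Vmn1r-ps103 is classed as protein-coding in spite of its name and was counted so. Neither labels nor file tell which pseudogenes the annotation of the authors held.

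Most members had modest scores. The authors' peak score, whose formula is not stated, was used to rank peaks within the list. Vmn1r peaks scored from 81.94 to 1173.76 with a median of 183.92, and Vmn2r peaks from 83.6 to 3139.09 with a median of 140.37, against a median of 210.06 over all peaks. At or above that median lay 20 of 45 Vmn1r peaks (44.4%) and 13 of 37 Vmn2r peaks (35.1%), where the list as a whole has 50%. Scores over 500 were reached by 9 members (11.0%), against 12.1% of all peaks. The exact 95% intervals of the medians, 131.16 to 247.44 for Vmn1r and 123.71 to 219.07 for Vmn2r, overlapped each other and held the median of the list.

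A single Vmn2r peak stood apart from the other members, though not from the top of the list. The peak of Vmn2r29 at chr7:7230320-7231307 scored 3139.09, the highest value of the list, and the next Vmn2r peak scored 824.33. The next 9 peaks below it in the whole list were tied at exactly 3100, so its rank among them rests on a small margin, and whether the score has a ceiling is not stated. It was 987 bp wide, about the median of all peaks (986 bp). The 222 peaks with a score over 1000 had a median width of 2473 bp, and only 3 of them were narrower than that of Vmn2r29. Its nearest neighbours were a peak of Clcn4, a chloride/proton exchanger gene, 18.7 kb away, and one of Zfp772, a zinc finger gene, 54.7 kb away on the other side. In gene order it fell in a cluster with 17 coding Vmn2r genes, of which only Vmn2r29 had a linked peak.

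The promoter of Vmn2r29 printed first was also the only one of its kind in the families. Of 335 windows of coding receptor genes, the other 334 had at most 51.3% G and C and at most 6 CG dinucleotides, against 62.3% and 23 there. Just 4 family windows reached 50% G and C, those of Vmn2r29, Vmn1r45, Vmn1r51 and Vmn1r1, whereas 60.7% of all 32851 windows did. The last 3 genes had no linked peak. This window shared no run of 50 bases with the promoter window of another gene, while the second window of Vmn2r29 did. The match of an outlying score with an outlying promoter was noticed after both had been seen and concerns 1 gene.

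**Figure D2:**
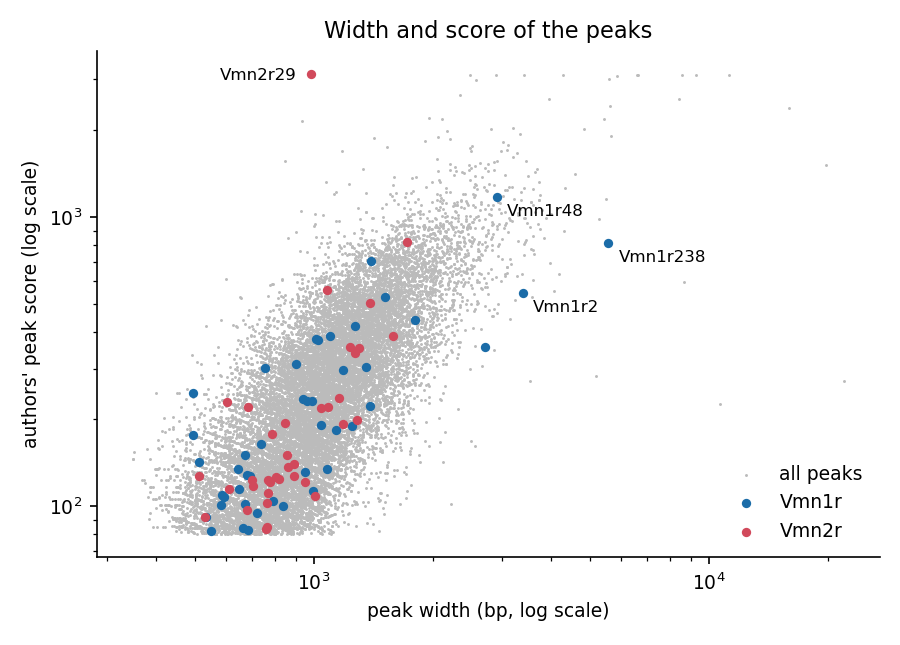
Width of each peak (bp, log scale) against the authors' score (log scale) for all 19979 peaks (grey), Vmn1r peaks (blue) and Vmn2r peaks (red). The Vmn2r29 peak lies at the top, far above peaks of like width, and the wide peaks of Vmn1r48, Vmn1r238 and Vmn1r2 lie at the right.

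Vmn1r48 had the highest score of its family and a broad peak. The peak, at chr6:89983266-89986174, scored 1173.76, was 2908 bp wide and ranked 126 in the list. Wider than 2000 bp were 4 of 45 Vmn1r peaks (8.89%) and 0 of 37 Vmn2r peaks, against 3.62% of all peaks. The other wide peaks belonged to Vmn1r238 (5573 bp), Vmn1r2 (3382 bp) and Vmn1r77 (2707 bp). Score rose with width among the members much as in the whole list, with a rank correlation of 0.721 over 82 peaks and 0.745 over all peaks, a description of peaks from the same libraries.

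Of the 5 Vmn1r peaks with a score over 500, 2 lay at the very start of a chromosome, where the assembly of mouse chromosomes begins next to the centromere. On chromosome 4 the first 4 peaks of the list were all members. They were those of Vmn1r2, with scores of 100.52, 191.48 and 545.82, and of Vmn1r3, with 231.92, between positions 3041873 and 3240572. On chromosome 18 the first 2 peaks were both named Vmn1r238, with a score of 131.16 at chr18:3030867-3031816 and of 816.37 at chr18:3115188-3120761. These chromosomes hold 2 coding Vmn1r genes and 1, so all 3 genes had a linked peak. Among these members the wide peaks of Vmn1r2 and Vmn1r238 given above scored highest; they ranked 1889 and 499 in the whole list.

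Chromosome 7 held the most members, 32 of its 1441 peaks, followed by chromosome 6 with 18 of 1028. Chromosome 7 is the main home of both families, with 126 coding Vmn1r and 52 coding Vmn2r genes. Linked peaks were found for 19 of the Vmn1r genes (15.1%) and 9 of the Vmn2r genes (17.3%). Chromosome 6 has 51 and 9 such genes, of which 14 (27.5%, interval 15.9 to 41.7%) and 4 (44.4%, interval 13.7 to 78.8%) had a linked peak. The intervals of the 2 chromosomes overlapped in each family. Chromosome 13 has 36 coding Vmn1r genes and linked peaks for 3 of them (8.33%).

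**Figure D3:**
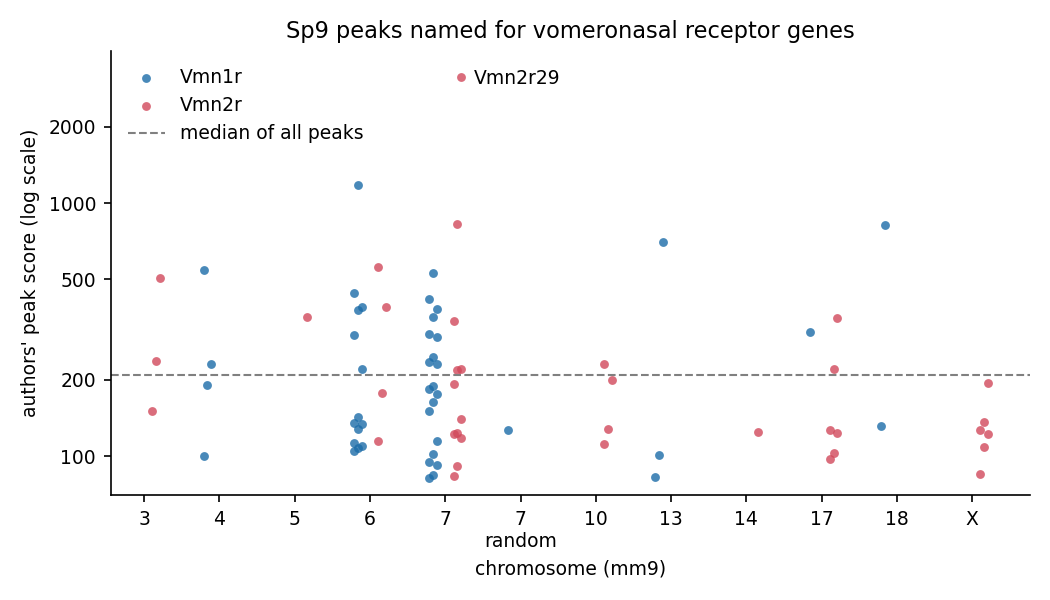
The authors' score (log scale) of each of the 82 member peaks by chromosome of build mm9, with Vmn1r peaks in blue, Vmn2r peaks in red and the median of all peaks, 210.06, as a dashed line. The points lie on both sides of the line, 9 of them above 500, and Vmn2r29 on chromosome 7 stands alone at the top.

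Within chromosome 7 the peaks were spread unevenly over the clusters. No interval was computed per cluster, and the part of close copies or of the authors' annotation in this spread was not tested. The largest Vmn1r cluster, from Vmn1r91 to Vmn1r183 in gene order, holds 86 coding genes, and 5 of them had a linked peak. They were Vmn1r91 (380.44), Vmn1r101 (247.44), Vmn1r121 (235.52), Vmn1r94 (164.16) and Vmn1r159 (81.94). A smaller cluster from Vmn1r55 to Vmn1r65 holds 12 coding genes, 11 of them Vmn1r, and 5 had a linked peak. Those were Vmn1r57 (530.4), Vmn1r56 (303.69), Vmn1r64 (296.03 and 183.92, which lay 5.395 kb apart), Vmn1r65 (94.85) and Vmn1r60 (92.07). The cluster that ends at Vmn2r56 had 7 of 17 coding genes linked, namely Vmn1r82 (419.63), Vmn1r77 (355.77), Vmn2r56 (340.73), Vmn1r73 (189.6), Vmn1r72 (176.05), Vmn1r80 (114.85) and Vmn1r84 (102.34). Outside these clusters, Vmn1r184 scored 231.22 and Vmn1r87 84.24. By contrast, none (0) of the 13 coding genes from Vmn2r-ps50 to Vmn1r71 had one. Besides the Taar cluster, this was the only one without a linked gene among 18 clusters of 5 or more coding genes.

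The Vmn2r genes of chromosome 7 beyond Vmn2r29 and Vmn2r56 had peaks in 3 distal clusters. Vmn2r75 scored 824.33 at chr7:93267022-93268744 and Vmn2r66, Vmn2r67 and Vmn2r79 on the same side scored 140.37, 117.95 and 121.91. Farther towards the centromere, Vmn2r57 scored 220.5, Vmn2r58 219.07 and 83.6, and Vmn2r61 123.7. Vmn2r75 was thus the only one of these genes with a score over 500.

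On chromosome 6 the Vmn1r peaks fell in 3 clusters and the Vmn2r peaks in 1. The first Vmn1r cluster had 8 of 28 coding genes linked, with Vmn1r15 (389.17) and Vmn1r27 (376.62) above the median of the list and Vmn1r16, Vmn1r17, Vmn1r20, Vmn1r23, Vmn1r29 and Vmn1r30 between 107.42 and 142.59. The next had Vmn1r34 (442.21) and Vmn1r38 (113.14) of 8 genes. The last had Vmn1r48, Vmn1r41 (300.25), Vmn1r40 (221.75) and Vmn1r42 (104.81) of 15. Its neighbour Vmn1r49, known as the receptor V1rb2 for the urinary ketone 2-heptanone, had no linked peak. The Vmn2r cluster had 4 of 9 genes linked: Vmn2r19 scored 561.36 at chr6:123309609-123310687, Vmn2r27 389.59, Vmn2r26 178.23 and Vmn2r24 115.27. Vmn2r26 is the receptor known as V2r1b, which responds to peptides.

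Members on the other chromosomes were few. On chromosome 3, home of the Vmn2r family C genes that are co-expressed with other V2R genes, 2 of 7 coding genes were linked, with Vmn2r3 at 503.93 (chr3:64049053-64050439) and Vmn2r6 at 150.11. On chromosome 13, Vmn1r-ps103 scored 703.8 at chr13:22514689-22516089, Vmn1r191 101.38 and Vmn1r189 82.74. Chromosome 17 had 5 of 32 coding Vmn2r genes linked, led by Vmn2r98 (353.04) and Vmn2r112 (220.6 and 102.95), with Vmn2r104, Vmn2r96 and Vmn2r114 between 97.29 and 127.13. Its 14 coding Vmn1r genes included 1 with a peak, Vmn1r230 (310.5). Vmn2r116, the receptor of the tear pheromone ESP1 on that chromosome, had no linked peak. Chromosome 10 had peaks of Vmn2r86 (230.55 and 111.65), which were the last on the chromosome, Vmn2r83 (199.69) and Vmn2r82 (127.45). Vmn2r12 on chromosome 5 scored 355.85 and Vmn2r89 on chromosome 14 scored 124.17. Scores over 500 were thus found on chromosomes 3, 4, 6, 7, 13 and 18.

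Most named genes had a single peak, 36 of 40 for Vmn1r and 25 of 29 for Vmn2r. The most belonged to Vmn2r121, with 6 peaks on chromosome X. They scored 84.98, 108.42, 121.83, 126.66, 136.84 and 193.69, spanned 1366 kb and lay 49.4 kb or more apart. All 6 were below the median of the list, 210.06, and 5 of them were also below the median of chromosome X, 175. The gene table has Vmn2r121 as the only coding member on this chromosome.

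The names of members followed gene order with few exceptions. Of 81 member peaks on assembled chromosomes, all 81 matched the chromosome of their gene, and 2 were out of gene order, those of Vmn1r186 and Vmn1r94. The Vmn1r186 peak on chromosome 7 (150.74) lay between those of Vmn1r60 and Vmn1r64, while the table lists the gene apart from the ordered genes of that chromosome. Another Vmn1r186 peak (127.38) was the only peak of the list on unplaced sequence of chromosome 7. Both genes are members of families of close copies, and the build of the table differs from that of the list.

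Members stood far from other peaks. The distance from a peak to the nearest other peak of the list had a median of 83.4 kb for Vmn1r and 178 kb for Vmn2r, against 29.6 kb for all peaks and 85.2 kb for Olfr peaks. More than 100 kb from any other peak lay 23 of 37 Vmn2r peaks (62.2%) and 17 of 44 Vmn1r peaks (38.6%), against 19.1% of all peaks. Every member lay more than 5 kb from the next peak (100%), against 80.7% of all peaks. More than 200 kb from any other peak lay 15.9% of Vmn1r, 17.3% of Olfr and 40.5% of Vmn2r peaks. The gene density of these regions was not matched in this comparison.

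**Figure D4:**
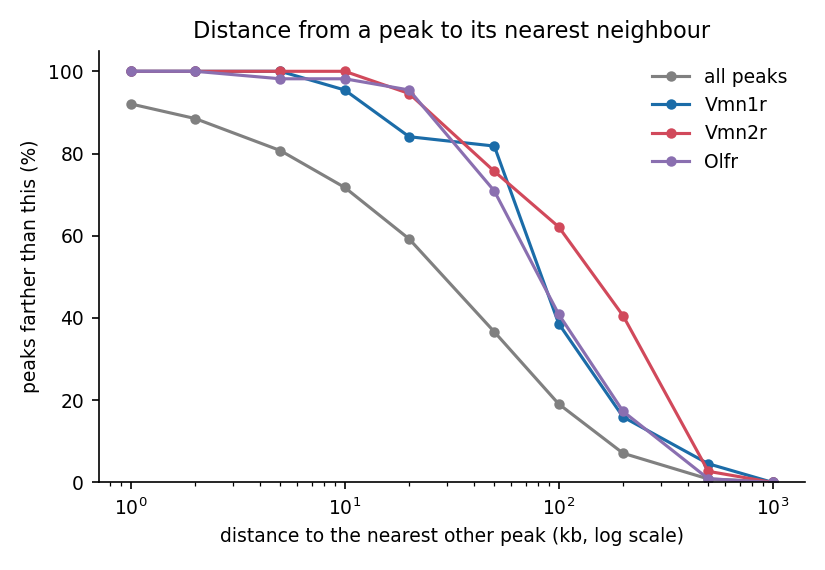
Percent of peaks (y) that lie farther than a given distance (x, kb, log scale) from the nearest other peak, for all peaks, Vmn1r, Vmn2r and Olfr peaks. At 100 kb the curves stand at 19.1% for all peaks, 38.6% for Vmn1r, 40.9% for Olfr and 62.2% for Vmn2r.

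Promoter windows of the receptor genes were poor in G and C whether or not the gene had a linked peak. Windows were found for 56 of the 69 genes named by peaks. Their median G and C content was 34.8% for Vmn1r genes with a linked peak and 36.0% for those without, 39.0% and 38.0% for Vmn2r, 37.3% for Taar and 52.7% for all windows. Coding genes of all kinds with a linked peak had a median of 61.7%, so the receptor genes with a peak did not share that composition. The GC box GGGCGG, a motif bound by Sp factors, was searched on both strands. It was present in 0 of 57 windows of receptor genes with a linked peak. Without a linked peak it was likewise present in 0 of 176 Vmn1r windows and 0 of 91 Vmn2r windows. By comparison, it was present in 61.7% of windows of all coding genes with a linked peak and in 35.7% of all windows. The letters occurred in 2 of 11 Taar windows, those of Taar6 and Taar9, which had no peak.

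The homeodomain core TAATTA was searched in the same way. It occurred in 0 of 30 windows of Vmn1r genes with a linked peak and in 15 of 176 of those without (8.52%). In Vmn2r genes it occurred in 3 of 27 windows with a linked peak (11.1%) and in 17 of 91 without (18.7%), against 5.29% of all windows. Coding genes of all kinds had it in 2.72% of windows with a linked peak and in 6.99% without. A lower share with a linked peak was thus not particular to these families. A match is only a run of letters, and GGGCGG and TAATTA do not overlap each other.

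Close copies were common among these windows. A run of 50 bases shared with the window of another gene was found in 28 of 57 windows of members (49.1%) and in 18.1% of all windows. Reads were 150 bases long, so a shared run of 50 bases does not tell whether a read fits several genes. For Vmn1r genes the share of windows with such a run was 43.3% with a linked peak and 56.8% without, and for Vmn2r genes 55.6% and 67.0%. Coding genes of all kinds had 13.9% and 28.1%, so a lower share with a linked peak was not particular to these families. The part of shared sequence in which gene received a peak was not tested.

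**Figure D5:**
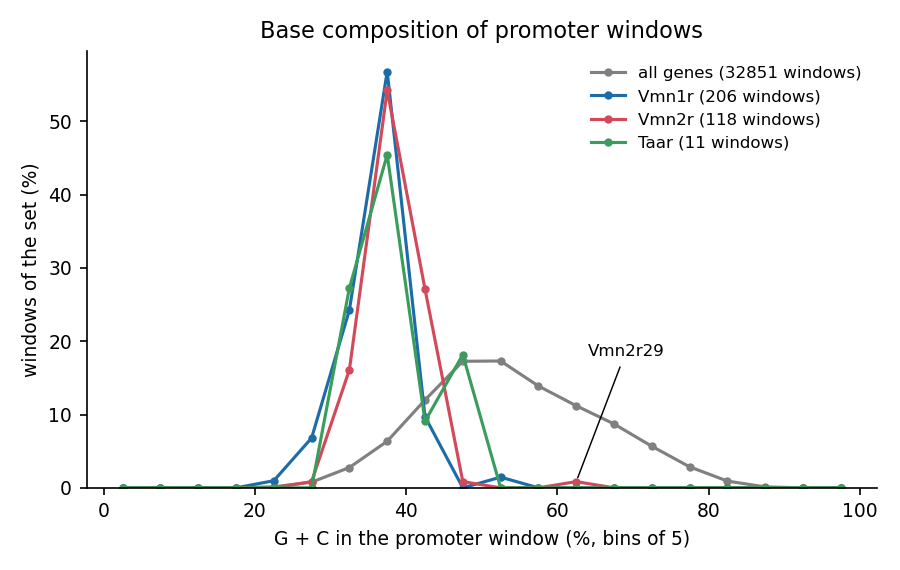
Percent of promoter windows (y) by G and C content (x, bins of 5%) for all genes and for coding Vmn1r, Vmn2r and Taar genes. The receptor windows pile up between 30 and 45%, and a single Vmn2r window, the first one of Vmn2r29, lies above 60%.

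Lists of other genes of these senses are set beside the 55.4% of all coding genes that had a linked peak; the lists are short and no list was tested. In vomeronasal transduction 4 of 7 genes were linked (57.1%, about the share of all coding genes): Gng8, a G protein gamma subunit of vomeronasal neurons, with a highest score of 843.42, Gnao1 and Gnai2, the alpha subunits of the basal and apical layers, with 331.75 and 219.1, and the chloride channel gene Ano1 with 251.94. All 4 had a peak at or above the median score of the list, so 4 of 7 did, against 35.4% of all coding genes. Trpc2, the cation channel that carries the vomeronasal response, had no linked peak, nor had Plcb2 and Ano2. Of 9 partner genes, the H2-Mv molecules that accompany V2R receptors and B2m, only H2-M1 was linked (11.1%, with a score of 160.01). Of 7 formyl peptide receptor genes, a further chemoreceptor family of the vomeronasal organ, Fpr2 (128.64) and Fpr-rs3 (511.05) were linked (28.6%). On chromosome 17 these were the neighbouring peaks of Vmn2r96 and of Vmn2r104 and Vmn1r230.

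Genes of olfactory transduction had 13 of 16 linked (81.2%, against 55.4% of all coding genes). With a peak at or above the median score of the list there were 8 of 16, against 35.4% of all coding genes. These 8 were the phosphodiesterase gene Pde1c (2651.95), Pde4a (443.57), Ric8b (411.36), Reep1 (379.82), Adcy3, the cyclase of odorant responses (346.63), Gnal, its G protein subunit (323.62), Cnga2, the cyclic nucleotide-gated channel (321.77), and Slc24a4 (230.2). Lower scores belonged to Gng13 (206.97), Stoml3 (105.62), Omp (96.14), Rtp1, which brings odorant receptors to the membrane (87.16), and Cngb1 (82.03). Cnga4, Ano2 and Rtp2 had no peak. Genes of vomeronasal wiring and development had 11 of 12 linked (91.7%, beside the same 55.4%), and 8 of 12 at or above the median score. They were led by the zinc finger gene Bcl11b (1090.42), the ephrin gene Efna5 (743.8), Lhx2 (514.56) and Epha5 (499.5), and Kirrel2 had no peak. Many of these genes are also active in the bulb itself. The median of the highest score per linked gene was 322 for olfactory transduction, 438 for wiring and development and 292 for vomeronasal transduction. It was 206 for linked Vmn1r genes, 194 for linked Vmn2r genes, with the 3 pseudogenes included, and 273 for all linked coding genes. The number of peaks per gene, such as 6 for Bcl11b, was not matched.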

How the data were processed

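The input was the authors' deposited list of shared peaks, with a chromosome, start, end, score and gene name per peak. Bowtie2 2.2.4, a read aligner, MACS 1.4.2, a peak caller, and build mm9 are named per the submitters' processing notes, without roles or settings. The peak score is the authors' own value, and neither labels nor file state the rule for a shared peak, the formula of the score or the annotation. Read depth is unknown. The deposited positions are neither counts nor signal and are printed as given; whether starts count from 0 or 1 is not stated.

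Gene names were matched to a RefSeq table of assembly GRCm38.p6 by symbol, then by a synonym of a single gene (12806 and 527 of 13383 names; all 69 member names by symbol). The table gave gene class, chromosome and gene order. A cluster is a run of Vmn1r, Vmn2r or Taar genes, pseudogenes included, with at most 10 other genes between neighbours. Promoter windows came from RefSeq, same assembly. Intervals are exact at 95%, of shares (Clopper-Pearson) or of medians (binomial order statistics); a count of 0 was given the limit of 3 counts. They treat genes or peaks as independent and cover counting error only. Distances run between the nearest edges of peaks. The counting was tested on simulated lists. The genes, lists and 500, 1000 and 2000 thresholds were chosen with earlier results of these data known. Every gene of the rule with a peak was named; members without one, and the remark on the promoter of Vmn2r29, were chosen after values were seen. Python 3.11.15, pandas 2.3.3 and scipy 1.17.1 were used.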

Additional observations from a re-analysis of the deposited data

How the results depend on the processing

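Of 61 values recomputed under alternatives, 44 stayed within 1.5 times the count or within the interval of the share or median. Some of these could not move, since a Taar count or share of 0 stays 0 when peaks are removed or merged. The limit to peaks at or above the median score moved every value above 0 to which it was applied. With only peaks at or above the median score, which keeps fewer peaks by construction, Vmn1r peaks fell to 20 and Vmn2r peaks to 13, and the shares of coding genes to 8.66% and 9.68%. The median scores were then 366 for Vmn1r and 353 for Vmn2r, and the median widths 1230.5 and 1160 bp. Chromosome 6 kept 6 Vmn1r and 2 Vmn2r peaks, and chromosome 7 kept 9 and 5. With pseudogenes counted among the genes, and linked pseudogenes among the linked genes, both shares were 10.7%. The GC box share fell to 28.6% of all windows and to 0 of the Taar windows when only the last 150 bases before the start were searched, and that of TAATTA to 2.73% of all windows; the searched length is shorter there. Merging peaks of the same name within 1000 bp left all 82 member peaks. Without the Vmn2r29 peak the median Vmn2r score was 139. No paired analysis was possible because values per library are lacking in the list; for the same reason no library could be left out. As the depth is unknown, a gene without a peak here may have one at greater depth.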

Other observations

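Of the 164 sides of member peaks, 102 faced another member peak as the next peak on the chromosome and 57 faced a peak of another gene; the remaining 5 were at the end of a sequence. Among the 57, the next peak was named for a zinc finger gene of the Zfp, Zscan or Zik type at 10 sides, for an olfactory receptor gene at 4, for an Nlrp gene at 4 and for a formyl peptide receptor gene at 3. A peak that lay between members was counted at each side it faced, as those of Fpr-rs3 and Nlrp2 were. These classes were chosen after the neighbours had been seen, and no comparison with other regions was made.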
